A study of Mus musculus with 16 samples.

Results

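The 9 genes described here are the mouse genes for the plasminogen activators urokinase (Plau) and tissue-type plasminogen activator (Plat), the urokinase receptor (Plaur), their inhibitor plasminogen activator inhibitor type 2 (Serpinb2), tissue factor (F3), the coagulation factors F7 and F10, tissue factor pathway inhibitor (Tfpi) and thrombomodulin (Thbd). They were taken by name, through the RefSeq accession of each array probe, and not by a cut on their measured values, but with earlier results of these data known. They had 15 of the array's probes, of which 13 were bright enough to test, and all 9 genes had a tested probe. In all, 16535 genes had a named probe and 12298 were tested.

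The study measured RNA on 16 Agilent arrays with 2 colours. Cy5 carried the sample: on 8 arrays blood of female C57Bl/6 mice bearing a Hepa1-6 tumour, and on 8 arrays the part of such tumours that a density gradient had enriched for infiltrating inflammatory cells. Cy3 carried, per the labels, blood RNA of untreated female C57Bl/6 mice on every array, and the dyes were never swapped. Hepa1-6 is an established mouse hepatoma line. The mice had received Hepa1-6 cells under the skin 10 days before sampling. The protocol calls them C57Bl/6 athymic mice, which lack thymus-derived T cells, while the strain label reads C57Bl/6. Blood went straight into RNAlater, the tumour fraction was mashed and spun first, and the groups' RNA came from different kits. Both groups carry the sample numbers 889, 890, 891, 893, 894, 896, 897 and 898. Blood arrays lay on slides 1 and 2 and infiltrating arrays on slides 3 and 4, so slide and group cannot be told apart. Nothing in the labels says that each sample is 1 mouse, so the p-values measure the spread between these samples.

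Tissue factor is the membrane protein that starts the extrinsic route of coagulation: it binds factor VII, and the complex activates factor X, which converts prothrombin to thrombin. Tfpi inhibits this complex, and thrombomodulin on endothelium and some myeloid cells turns thrombin towards activating protein C. In the opposite process, urokinase and tissue-type activator convert plasminogen to plasmin, which dissolves fibrin. The urokinase receptor concentrates urokinase on the surface of leukocytes and tumour cells. Hepatocytes make the circulating coagulation factors, while monocytes and macrophages can be induced to express tissue factor, Plaur and Serpinb2.

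Values are given on 3 scales. A signal is a spot's median intensity minus its local background, before any normalisation. A log2 ratio is Cy5 over Cy3 after normexp background correction and loess, a curve that removes the trend of the ratio with brightness within an array. A scaled Cy5 or Cy3 value is the log2 signal of 1 channel after loess and scaling between arrays. A gene was called when limma gave an adjusted p (Benjamini-Hochberg over all 26494 tested probes) under 0.05 and the change was at least 2-fold. Each gene is represented by its brightest tested probe.

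Beside the sample channel, the reference channel also differed between the array sets. Albumin (Alb) had Cy3 signals of at most 19.5 on the blood arrays and 4658 to 12194 on the infiltrating arrays, and alpha-fetoprotein (Afp) 118 to 150 against 2235 to 4883. The B cell gene Ms4a1 lay at 5641 to 7715 and 6462 to 7052. Scaled Cy3 differed past the same rule at 8.94% of genes. In Cy5, the summed signal of 10 tested hepatoma and hepatocyte markers was 125 to 294 in blood and 177482 to 921997 in the infiltrating fraction, that of 12 monocyte and macrophage markers 18294 to 39164 and 94144 to 375900, and that of 9 fibroblast markers 85 to 407 and 45310 to 231799. Summed signals of 10 platelet markers were 43280 to 119934 in blood and 7614 to 39026 in the fraction. Those of 5 T cell markers were 1178 to 2308 and 16508 to 48021. Much of the monocyte and macrophage sum was Lyz2, at 17941 to 38564 and 56713 to 206598. Lyz2 was called lower by log2 ratio in infiltrating minus blood (-1.08 ± 0.20). All these sums are unscaled, and unscaled Cy5 of spike-in controls also rose, with medians of 4212 and 12207.5. The part of these cell types, and of the reference, in the values below was not tested. In such bulk RNA, fewer cells of a type and less RNA per cell cannot be told apart. Infiltrating samples 897 and 898 stood apart before and after background correction. Before it, their summed Cy5 signals of 9 neutrophil markers were 102424 and 119436, against 16996 to 65299 on the other 6 arrays. The Cy3 sums were 32699 to 36447 on all infiltrating arrays. After it, Cy5 and Cy3 correlated at 0.92 and 0.89 over probes in samples 897 and 898, against 0.79 to 0.83 on the other 6 arrays. Their median neutrophil marker log2 ratio was -0.08 and -0.23 against -1.30 to -0.89. Dim spots also came out of the normexp correction higher on these arrays. Plau, with Cy3 signals of 28 and 26.5, then lay at -3.80 and -4.55 log2 over spike-in control transcripts. On the other 6 it lay at -7.31 to -6.53, with signals of 13 to 21.5. A raised floor draws log2 ratios towards 0, and its part in the values of samples 897 and 898 was not tested. Log2 ratios of blood and infiltrating arrays correlated at -0.30 to -0.07 over all probes, and the direction follows the labelled dyes.

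The promoters of F3, Plaur and Serpinb2 are shown because each holds the AP-1 motif TGANTCA, where N is any base, and genes for AP-1 subunits were among those called in the fraction (below). Another AP-1 subunit gene, Fosl1, was not called (0.31 for infiltrating minus blood). F3, Plaur and Serpinb2 were themselves not called higher by log2 ratio. Whether AP-1 acted on them here was not tested. RefSeq (assembly GRCm38.p6) gave a promoter for 6 of the 9 genes: F3, Plaur, Serpinb2, F7, F10 and Tfpi. Each line holds the 250 bases before the transcription start, with AP-1 matches and, in F3, the kB-like motif GGANTTTCC in capitals.
F3 chr3:121723287-121723536, + strand: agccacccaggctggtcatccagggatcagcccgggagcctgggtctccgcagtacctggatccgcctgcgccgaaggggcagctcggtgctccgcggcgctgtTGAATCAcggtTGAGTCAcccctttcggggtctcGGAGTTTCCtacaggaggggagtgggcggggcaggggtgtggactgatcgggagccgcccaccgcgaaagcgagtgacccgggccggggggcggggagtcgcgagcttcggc
Plaur chr7:24462233-24462482, + strand: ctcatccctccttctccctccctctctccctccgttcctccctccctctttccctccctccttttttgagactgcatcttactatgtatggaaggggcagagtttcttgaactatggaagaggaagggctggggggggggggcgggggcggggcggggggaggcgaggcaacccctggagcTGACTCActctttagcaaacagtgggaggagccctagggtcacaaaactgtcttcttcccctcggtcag
Serpinb2 chr1:107511173-107511422, + strand: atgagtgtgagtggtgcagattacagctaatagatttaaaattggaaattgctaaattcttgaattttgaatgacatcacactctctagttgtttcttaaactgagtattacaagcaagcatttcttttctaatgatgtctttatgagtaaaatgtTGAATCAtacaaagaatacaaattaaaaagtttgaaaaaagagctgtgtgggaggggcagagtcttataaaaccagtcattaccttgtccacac
Both strands were searched. F3 holds TGAATCA from 146 to 140 and TGAGTCA from 135 to 129 bases before its start, followed by GGAGTTTCC from 112 to 104. Plaur holds TGACTCA from 69 to 63, and Serpinb2 TGAATCA from 94 to 88 bases before the first of its 2 starts. Of 32851 RefSeq promoter windows of this length, 6.75% held TGANTCA and 1.07% held GGANTTTCC. The Sp1 motif GGGCGG, present in 32.7% of windows, occurs 3 times in F3 and 3 times in Plaur, where 2 copies overlap the Egr1 motif GCGNGGGCG (4.7% of windows). F3 also holds GGGTGTGG, a motif of Klf factors found in 3.2% of windows. F7, F10 and Tfpi held no match to TGANTCA or GGANTTTCC. F7 and F10 are direct neighbours on chromosome 8 in the RefSeq order of protein-coding genes.

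In blood of tumour-bearing mice, none of the 9 genes was called against untreated blood by limma, where 0.748% of all genes were called. At an unadjusted p under 0.05 without the fold rule, 4 of the 9 passed, against 56% of all genes. The values nearest to a call were Serpinb2 at a log2 ratio of 0.33 ± 0.07 (SE, n = 8, limma adjusted p = 0.00092) and F10 at 0.32 ± 0.06 (adjusted p = 0.00035), both positive on 7 of 8 arrays. Thbd was at -0.13 ± 0.04 (adjusted p = 0.023) and Plat at 0.15 ± 0.05 (adjusted p = 0.02). F3, Plau and Tfpi were well above background on 0 of 8 blood arrays in both channels, so blood gives no fold for them. Plaur was at 0.01 ± 0.05 and F7, well above background in Cy5 on 1 of 8 blood arrays, at 0.01 ± 0.05.

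**Figure D1:**
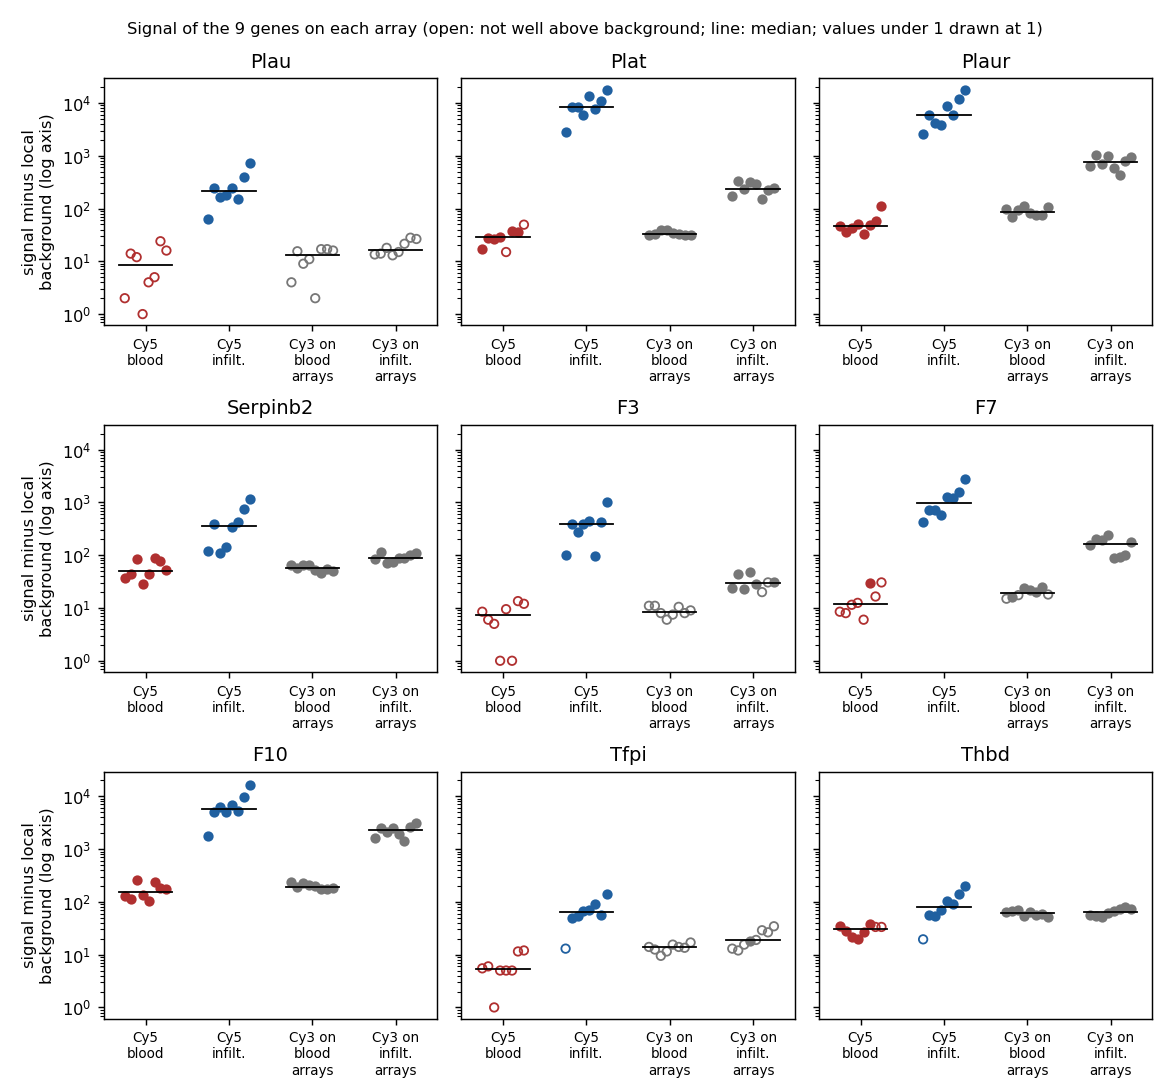
Signal minus local background (log axis) of each gene's representing probe on every array, in Cy5 (red, blood; blue, infiltrating) and in Cy3 (grey, on blood and on infiltrating arrays); open circles were not well above background and black lines are medians of 8 arrays. Cy5 is higher in every infiltrating sample than in any blood sample for all of these genes but Thbd. In Cy3 the same holds between the array sets for F10, Plaur, Plat, F7, F3 and Serpinb2. Unscaled Cy5 was brighter on the infiltrating arrays in general. Its median over all probes was 9 to 23 on blood arrays and 24 to 95 on infiltrating arrays, and that of spike-in controls 4212 and 12207.5. The share of all genes without overlap was not counted.

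Of the activators, Plat was called higher in the fraction. Its Cy5 signal was 17, 28, 27, 29, 15, 37, 36 and 49.5 in blood samples 889 to 898, and 2832, 8475, 8365, 5929, 13776, 7856, 10673 and 17517 in the infiltrating fractions of the same numbers. Every infiltrating sample lay far above every blood sample. Cy3 also differed, with 31.5 to 39.5 on blood arrays and 150 to 331 on infiltrating arrays. The log2 ratio was -0.02 to 0.38 in blood and 1.53 to 2.09 in the fraction, without overlap. Plat was called higher against the reference at 1.90 ± 0.07 (SE, n = 8, limma adjusted p = 7.1e-09) and in the difference of the groups at 1.75 ± 0.08 (adjusted p = 3e-12). These were 2 of 9 genes called in each of these comparisons, Plat higher and F10 lower, against 19.4% of all genes (9.31% higher, 10.1% lower) for infiltrating cells against the reference and 23.9% (12.1% higher, 11.8% lower) for infiltrating minus blood. Scaled Cy5 alone gave a difference of 3.1 ± 0.09. The second Plat probe was well above background in Cy5 on 0 blood arrays, its Cy5 was at least 4.4-fold higher in the fraction, and its ratio difference of 0.80 ± 0.07 was not called.

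Urokinase itself was dim. Plau was well above background in Cy5 on 0 of 8 blood arrays and on 8 of 8 infiltrating arrays, with signals of 1 to 24 in blood and 64.5, 240.5, 163, 183, 243.5, 150, 402.5 and 737 in the fraction. In Cy3 it was so on 0 of 16 arrays (2 to 28). Scaled Cy5 was at least 1.5-fold higher in the fraction than in blood, while Cy5 over spike-ins differed by 0.76 ± 0.40 (limma adjusted p = 0.1). The bound is on the scale after the offset of 50 and loess. The log2 ratio in the fraction was 0.48 ± 0.09 (adjusted p = 0.00094), positive on 8 of 8 arrays and under the 2-fold rule, while the scanner program's deposited ratio gave 4.39 with Cy3 not well above background. A second Plau probe was well above background on 3 infiltrating arrays and was not tested. Its bound was -0.01 log2.

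The urokinase receptor gene had strong signals in the fraction. Plaur Cy5 was 33 to 111.5 in blood and 2597, 5922, 4247, 3778, 8794, 6044, 11830 and 17885 in infiltrating samples 889 to 898. Cy3 was 70 to 111 on blood arrays and 424 to 1041 on infiltrating arrays. Both channels were thus higher on the infiltrating arrays, and the ratio did not separate the groups: 0.16 ± 0.13 against the reference (adjusted p = 0.3) and a difference of 0.15 ± 0.15 (95% interval -0.17 to 0.47). Scaled Cy5 alone was called higher, at 2.03 ± 0.18 (limma adjusted p = 3.5e-09), as was scaled Cy3, at 1.88 ± 0.12 (adjusted p = 1.6e-10). The 4 arrays of slide 3 had ratios of -0.48 to 0.27 and those of slide 4 0.33 to 0.78, with means of -0.17 ± 0.12 and 0.49 ± 0.09 (SE). The second Plaur probe gave a ratio difference of -0.11 ± 0.17.

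Serpinb2, the intracellular and secreted inhibitor of urokinase, had Cy5 signals of 37, 45, 83, 28.5, 45, 89.5, 77 and 53.5 in blood and 121, 382, 111.5, 140.5, 335, 418, 737.5 and 1160 in the fraction. The 2 highest were samples 897 and 898. Cy3 was 46 to 64.5 on blood arrays and 72.5 to 113 on infiltrating arrays. The log2 ratio was 0.02 and -0.01 in samples 897 and 898 and -1.07 to -0.49 in the other 6, which lay below all blood arrays (-0.01 to 0.68). The difference of -0.87 ± 0.15 (adjusted p = 4.1e-05) missed 2-fold, and without samples 897 and 898 it was -1.06 (adjusted p = 4.4e-08) and was called. The second Serpinb2 probe was called lower at -1.13 ± 0.15 (adjusted p = 2.1e-06). On unscaled signals every infiltrating sample was above every blood sample, while after scaling every one was below (-0.92 ± 0.15), and relative to spike-in controls the difference was 0.43 ± 0.40.

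**Figure D2:**
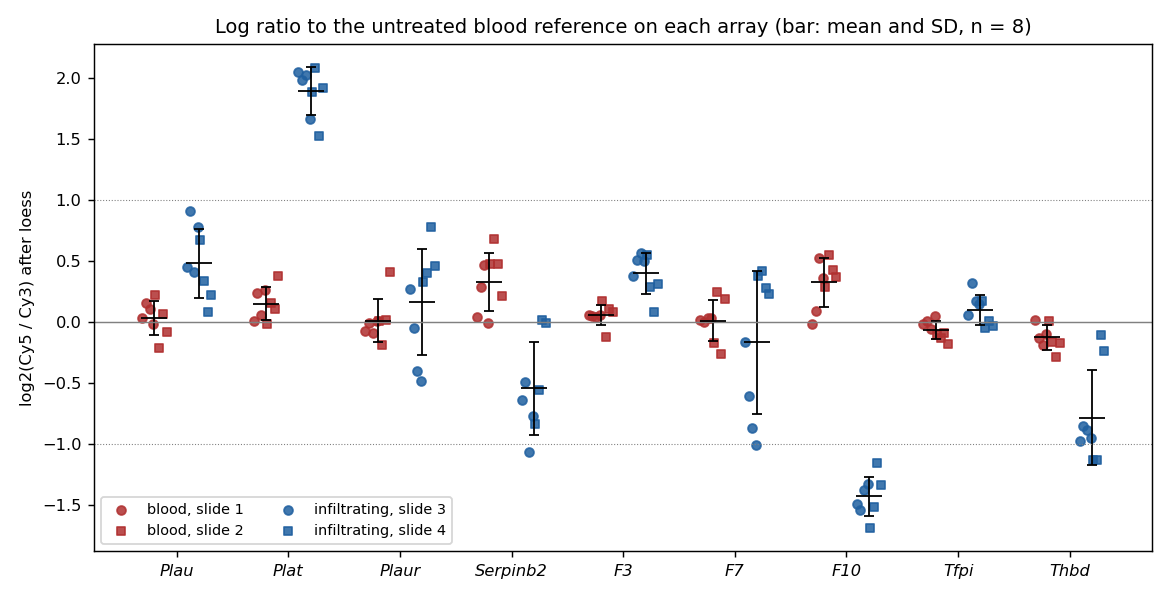
Log2 ratio of Cy5 to the Cy3 reference after loess for each gene on each array, with mean and SD of 8 arrays per group; circles and squares separate the slides and dotted lines mark 2-fold. Plat at 1.53 to 2.09 and F10 at -1.69 to -1.16 in the fraction are the only genes shown whose groups do not overlap, and the share over all genes was not counted. F7 and Plaur split by slide.

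In the coagulation arm, tissue factor mRNA was measurable in the fraction and not in blood. F3 Cy5 signals were -3.5 to 13.5 in blood, well above background on 0 of 8 arrays, and 102, 386, 281, 386.5, 444, 96, 424.5 and 1024 in the fraction, well above background on 8 of 8. In Cy3, F3 was well above background on 0 blood arrays (6 to 11) and 6 infiltrating arrays (20 to 48). Scaled Cy5 was at least 1.74-fold higher in the fraction than in blood. The second probe gave at least 1.62-fold. The log2 ratio in the fraction was 0.40 ± 0.06 (adjusted p = 0.00025), positive on 8 of 8 arrays, and the group difference was 0.34 ± 0.07 (adjusted p = 3e-04); both were under 2-fold, whereas the deposited ratio gave 1.85 and a difference of 1.71.

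F7, the protease that tissue factor binds, had Cy5 signals of 6 to 30.5 in blood and 434, 707, 707.5, 576, 1283, 1236, 1594 and 2764 in the fraction. Cy3 was 15 to 25.5 on blood arrays, 156 to 246 on slide 3 and 88.5 to 176 on slide 4. Scaled Cy5 was called higher at 1.12 ± 0.12 (adjusted p = 6.7e-08), a value whose blood side was well above background on 1 of 8 arrays, and scaled Cy3 at 1.30 ± 0.12 (adjusted p = 2.5e-08). The log2 ratio was -1.01 to -0.16 on the 4 arrays of slide 3 and 0.23 to 0.42 on those of slide 4, so its mean of -0.17 ± 0.18 describes neither slide. The group difference was -0.18 ± 0.19 (95% interval -0.59 to 0.23).

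F10, the substrate of that complex, was lower in the fraction by its ratio and higher by its own Cy5 signal. Its Cy5 signal was 130, 112, 258.5, 135.5, 104.5, 236, 183 and 173.5 in blood and 1800, 5050, 6152, 5118, 6732, 5193, 9763 and 16436 in the fraction. Cy3, labelled as the same reference blood, was 172 to 239 on blood arrays and 1443 to 3133 on infiltrating arrays. The log2 ratio was -0.02 to 0.55 in blood and -1.69 to -1.16 in the fraction, below 0 on 8 of 8 arrays and without overlap. F10 was called lower against the reference at -1.43 ± 0.06 (limma adjusted p = 2.1e-08) and in the group difference at -1.76 ± 0.09 (adjusted p = 6.6e-12). Scaled Cy5 alone was instead higher by 0.76 ± 0.15 (adjusted p = 0.00016), with every infiltrating sample above every blood sample, and scaled Cy3 was called higher by 2.52 ± 0.11 (adjusted p = 1.4e-12). With arrays centred on their median in place of loess, the group difference was 1.0, with spike-in centring 0.35, and for Cy5 over spike-ins 3.35 ± 0.38. On slides 3 and 4 alone the ratio was -1.44 and -1.43.

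The inhibitors of the arm were dim. Tfpi in Cy5 was well above background on 0 of 8 blood arrays and 7 of 8 infiltrating arrays, with signals of -3.5 to 12 in blood and 13 to 140 in the fraction. Its scaled Cy5 was at least 1.13-fold higher in the fraction, while Cy5 over spike-ins differed by -0.04 ± 0.41. The ratio of 0.10 ± 0.05 (limma adjusted p = 0.099) did not pass. A second Tfpi probe, well above background in Cy5 on 2 infiltrating arrays, was not tested and had a bound of -0.10 log2. Thbd had Cy5 signals of 35.5, 28, 22, 20, 27, 38, 33.5 and 33.5 in blood and 19.5, 56, 54, 69.5, 103, 91.5, 140 and 200 in the fraction, with Cy3 at 51 to 71.5 and 51 to 79.5. Its log2 ratio was -1.13 to -0.85 in 6 infiltrating samples and -0.11 and -0.24 in samples 897 and 898. The mean of -0.79 ± 0.12 (adjusted p = 0.00029) was negative on 8 of 8 arrays and did not reach 2-fold, and without those samples it was -0.99. The group difference was -0.66 ± 0.13 (adjusted p = 0.00028). Scaled Cy5 alone was called lower at -1.09 ± 0.09 (adjusted p = 1.4e-09), without overlap, and Cy5 over spike-ins differed by -0.34 ± 0.40.

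By scaled Cy5 alone, 4 of the 9 genes were called between the fraction and blood, Plat, Plaur and F7 higher and Thbd lower, where 33.2% of all genes were called (18.4% higher, 14.8% lower). In scaled Cy3, 4 genes were called higher on the infiltrating arrays, F10, Plaur, Plat and F7, with 7.49% of all genes called higher. Relative to spike-ins, 5 genes were called higher in Cy5 (Plat at 5.04, Plaur at 4.36, F10 at 3.35, F7 at 2.34 with 1 of 8 blood arrays well above background, and F3, which has no fold because 0 of 8 were), on a scale where 64.1% of all genes were called and 57.9% were called higher. The same 4 genes as before were called higher in Cy3 over spike-ins, at 1.30 to 2.70, with 9.34% of all genes called and 8.77% called higher. Plat kept a higher call on each of these scales, in both channels.

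**Figure D3:**
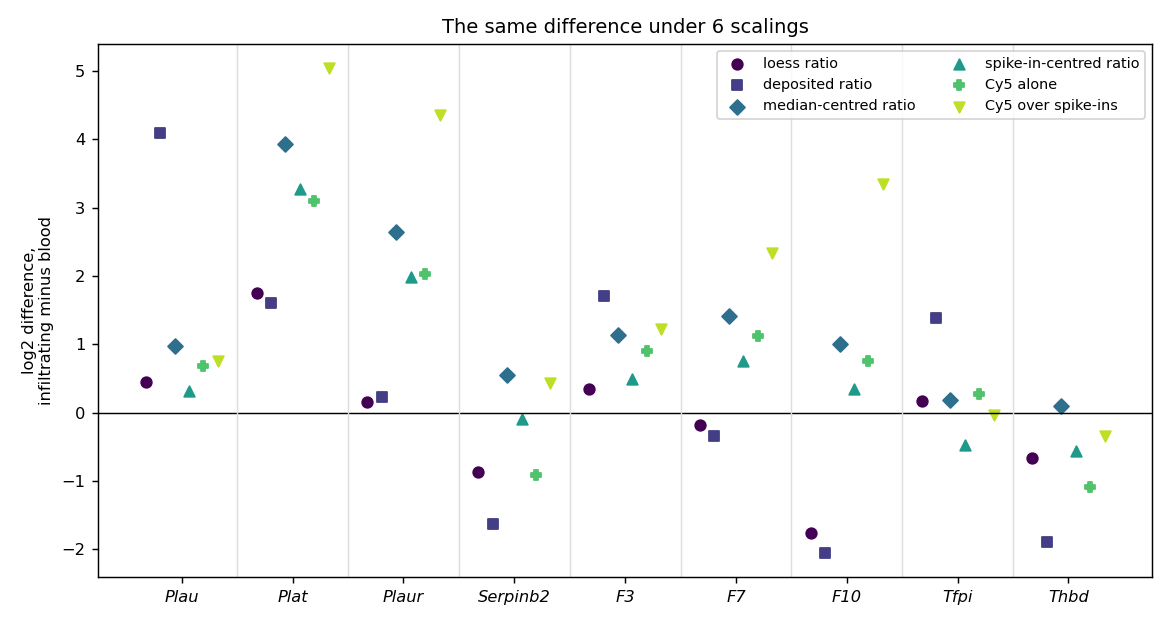
Log2 difference of infiltrating minus blood for each gene under 6 scalings: the loess ratio, the scanner program's deposited ratio, ratios centred on the array median or on spike-in controls, Cy5 alone after scaling, and Cy5 over spike-in controls. Plat is above 0 under each of these and lies between 1.61 and 5.04, while F10 ranges from -2.05 to 3.35.

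Genes whose log2 ratios over the 16 arrays were most like each of the 9, by the root mean square difference, were Ccl24 and Gpnmb for Plat (0.16 and 0.18), Zfp36 and Ubxn4 for Plaur (0.16 and 0.17), Hcfc1r1 and Eif5a for F10 (0.15 and 0.16) and Ddx47 and Srm for F7 (0.17 and 0.19). Plvap and Ppp1r32 were nearest to Serpinb2 (0.15 each), Raph1 and Arntl2 to F3 (0.09 and 0.10), Tmem65 and Yes1 to Plau (0.13 each), Cep72 and Cipc to Tfpi (0.07 each), and Ralgapa1 and Ccr9 to Thbd (0.11 and 0.12). For the dim genes F3, Plau and Tfpi such values mostly compare ratios near 0.

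The surrounding coagulation and fibrinolysis genes were read from a list of 73, of which 72 had a probe and 60 were tested. In blood, 2 were called higher and 1 lower, where 0.748% of all genes were called. F13a1, the fibrin-crosslinking factor XIII A chain of platelets and macrophages, was at 1.24 ± 0.05 (limma adjusted p = 1.5e-10), the platelet integrin chain Itgb3 at 1.1 ± 0.06 (adjusted p = 2.3e-09) and the transcription factor Klf4 at -1.01 ± 0.07 (adjusted p = 4.3e-08). Klf4 lay at the 2-fold limit: its call was lost without sample 890, 891, 894, 896 or 898, at -0.99 to -0.98. With median centring F13a1 was at 0.58 and Itgb3 at 0.43, and neither was called. In the fraction against the reference, 14 were called higher and 6 lower, with a median of 0.30 against 0.05 over all tested genes. Of all genes, 9.31% were called higher and 10.1% lower there. For infiltrating minus blood, 13 were called higher and 7 lower, with a median of 0.32 against 0.08. The shares of all genes were 12.1% higher and 11.8% lower. Median centring gave 39 higher and 1 lower for that difference, against 7377 and 334 over all genes. Spike-in centring gave 31 and 7 (5617 and 1149 over all genes), deposited ratios 24 and 17 (4232 and 2774) and scaled Cy5 alone 21 and 9 (2263 and 1814). The split of directions thus depended on the scale.

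Of 10 tested coagulation factors, 3 were called higher and 4 lower in infiltrating minus blood, where 12.1% of all genes were called higher and 11.8% lower. Vwf, the platelet-tethering factor made by endothelium and megakaryocytes, was at -5.48 ± 0.12 (adjusted p = 3.5e-17), F5 at -2.78 ± 0.32 and F13a1 at -1.93 ± 0.16, while Lman1, a cargo receptor for factors V and VIII, was at 3.08 ± 0.11 (adjusted p = 4.5e-14). All 10 platelet markers were called lower in the same comparison, with a median of -4.89. Of 7 anticoagulant genes, the protein C receptor Procr was at 2.30 ± 0.13 (adjusted p = 2.5e-11). It was not well above background in blood, and its Cy5 was at least 15.1-fold higher in the fraction (limma adjusted p = 1.4e-18 for scaled Cy5). Pros1, the cofactor of protein C, was at -1.29 ± 0.11 (adjusted p = 1.1e-08). Median centring turned F13a1 to 0.70 and Pros1 to 1.35 and left F5, at -0.79, without a call, while Vwf, Lman1 and Procr kept their calls. Anxa5, which binds phosphatidylserine, was called higher against the reference at 1.14 ± 0.14, and its group difference of 0.98 ± 0.15 was called only without sample 890, 891 or 893 of the fraction (1.02 to 1.08). The thrombin receptor F2r was called against the reference at 1.05 ± 0.15, a call lost without sample 889 (0.95) or 891 (0.99), and its difference of 0.78 ± 0.17 was not called.

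Of 8 tested genes of plasminogen and its inhibitors, 1 was called in infiltrating minus blood, where 23.9% of all genes were called. It was Cpb2, which trims fibrin's plasminogen-binding ends, at -1.34 ± 0.27 (limma adjusted p = 0.00025). This value turned to 0.30 with median centring. Of 4 plasminogen receptors, Plgrkt was called higher at 1.35 ± 0.10 (adjusted p = 2.4e-09). Of 8 receptor partners of urokinase, Vldlr, which takes up complexes of urokinase with its inhibitors, was called higher at 2.25 ± 0.16 (adjusted p = 1.1e-09), with Cy5 well above background on 1 of 8 blood arrays. Of the vitamin K cycle (3 tested), the protease-activated receptors (2 tested) and the other proteases and growth factors (6 tested), none was called in the group difference by limma; the counts at an unadjusted p under 0.05 were 3, 2 and 5, where 76.9% of all genes passed.

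Of 12 tested transcription factors described as regulators of F3, Plau or Thbd, 7 were called higher and 1 lower in infiltrating minus blood, with a median of 1.05, where 23.9% of all genes were called and 12.1% were called higher. Klf4 was at 2.75 ± 0.11 (adjusted p = 2.7e-13), Fos, a subunit of AP-1, at 2.67 ± 0.20 (adjusted p = 1.4e-09) and Hif1a, the oxygen-regulated factor, at 1.87 ± 0.16 (adjusted p = 1.1e-08). Klf2, a shear-induced activator of Thbd in endothelium, was at -2.72 ± 0.09 (adjusted p = 1e-14), and at -0.09 without a call with median centring. The other genes called higher were Egr1, Junb, Sp1 and Jun, at 1.02 to 1.81. Fos signals in Cy5 were 29 to 105.6 in blood and 5562 to 25131 in the fraction, and in Cy3 35.5 to 44.4 and 68.6 to 115.2.

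**Figure D4:**
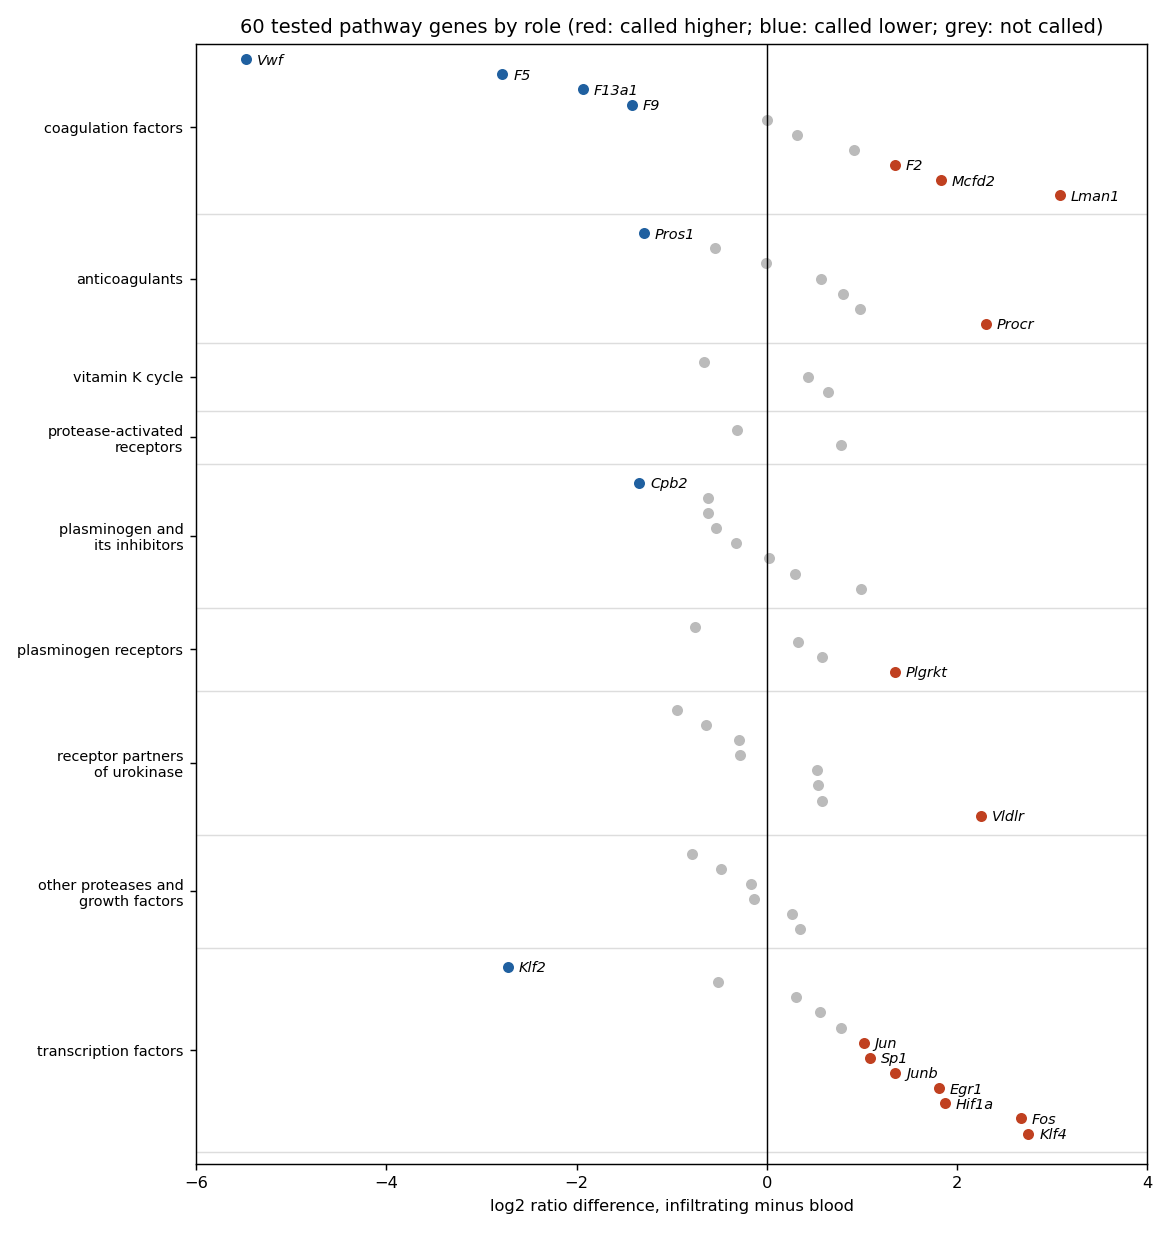
Log2 ratio difference of infiltrating minus blood (limma, 8 arrays per group) for the 60 tested pathway genes, grouped by role; red and blue mark genes called higher and lower. The 12 transcription factors hold 7 of the 13 genes called higher, and Vwf at -5.48 is the lowest value. Over all tested genes, 12.1% were called higher and 11.8% lower.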

How the data were processed

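The members and gene lists were chosen with earlier results of these data known. The deposited scanner files give, for each spot and dye, a median intensity and a local background, together with a log10 ratio that the scanner program had normalised. That program was Agilent Feature Extraction, in version 10.5.1.1 per the file headers and 9.1.3.1 per the submitters' processing notes. The series' value table differed from these deposited log10 ratios by 0, with medians of 0 on every array. Median intensities were corrected with normexp (offset 50) and normalised by loess in limma 3.58.1 (R 4.3.3; the data.table package, 1.17.8), which gave log2 ratios from the deposited values. Control spots had weight 0, 87 to 153 flagged spots per array were dropped, no spot was saturated, and spots of a probe were averaged. Of 41174 probes, 23374 had 1 RefSeq symbol (GRCm38.p6), 0 several and 17800 none. A probe entered the tests when Cy5 was well above background on 4 or more of a group's 8 arrays, or Cy3 on 8 or more of the 16. The share of such probes per array was 25.3% to 36.8% for blood in Cy5, 51.8% to 66.3% for the fraction and 41.4% to 51.6% in Cy3. The number of arrays limits the precision.

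Ratios of a group were tested against 0, and the groups against each other, with limma. Untreated blood stands for 1 control sample: a test against 0 does not include how untreated mice vary, and any dye bias of a gene remains in it. Cy5 and Cy3 alone were scaled by Aquantile or over the median of 10 spike-in transcripts. The spike-in scaling, the Cy3 comparison and the omission of samples 897 and 898 together were added after seeing the data. An "at least" fold compares the bright group's mean scaled log2 signal with a floored mean of the dim group. There, a signal under the array's lowest probe well above background was raised to it. The bound holds for the scaled signal only and takes in no spread between arrays. Any dye bias stays in it too. The sample number was not used as a block in the main fit. Same-numbered samples correlated at -0.17 to 0.20 in their deviations. Values of differently numbered samples are not given beside them, so these do not settle whether samples are paired. Of the pathway list, the 4 called genes with the largest group difference per role are named. Egr1, Junb, Sp1, Jun, Fosl1 and further genes marked in the pathway plot were named after their values were seen. On simulated data for infiltrating minus blood the test recovered 200 of 200 changed probes among 26494, with 0 false calls. All planted changes were larger than the fold limit, in independent noise with each probe's own spread. Slide effects, dim signals, dye or reference shifts and the normalisation were left out. The simulation therefore checks the fitting step only and says nothing on those.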

Additional observations from a re-analysis of the deposited data

Results flagged for a closer look

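In blood, Plaur of sample 898 had a log2 ratio of 0.41, far from the other 7 samples (-0.19 to 0.02), and F3 of sample 896, not well above background there, was at -0.12 against 0.04 to 0.17. In the infiltrating fraction, Procr of sample 897 was at 1.59 against 2.14 to 2.59. These were 3 of 50 groups examined, and chance gives about 1 in 20. The ratios of the infiltrating fraction and of blood differed for F10 by -1.76 and for Plat by 1.75 on the log2 scale, both tested directly with limma.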

How the results depend on the processing

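Of the 9 genes, 0, 2 and 2 were called on the loess scale for blood against the reference, the fraction against the reference and infiltrating minus blood, and of all genes 92, 2390 and 2935. Plat kept its direction and both calls under every alternative run; for the group difference it ranged from 1.28 to 5.04. F10 kept its lower calls except under median or spike-in centring and on the single-channel scales. The other 7 genes had no call in the main setting; Serpinb2 was called lower in infiltrating minus blood with the mean of a gene's probes (-1.0) and without samples 897 and 898 of the fraction (-1.06), which gave 3 of the 9 under each. The cause of the changes below was not tested. Sign changes of values that were not called are included.

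Without background correction, for blood against the reference 53 genes in all and 1 pathway gene were called. With plain background subtraction and a floor, for blood against the reference 404 genes in all were called and the sign turned for Plaur (-0.05), F7 (-0.09) and Vldlr (-0.01). For the fraction against the reference 5 of the 9 genes, 4368 genes in all and 32 pathway genes were called. For infiltrating minus blood 4 of the 9 genes, 5308 genes in all and 34 pathway genes were called. With median centring in place of loess, for blood against the reference 894 genes in all were called and the sign turned for Plaur (-0.38), F10 (-0.29), Tfpi (0.00), Vwf (-0.36), F5 (-0.38), Pros1 (-0.31), Anxa5 (-0.49), F2r (-0.14), Cpb2 (-0.47) and Klf2 (0.00). For the fraction against the reference 5 of the 9 genes, 7259 genes in all and 44 pathway genes were called and the sign turned for Serpinb2 (0.56), F7 (1.45), F10 (0.71), F13a1 (1.28) and Pros1 (1.04). For infiltrating minus blood 5 of the 9 genes, 7711 genes in all and 40 pathway genes were called and the sign turned for Serpinb2 (0.55), F7 (1.41), F10 (1.0), Thbd (0.09), F13a1 (0.70), Pros1 (1.35), Cpb2 (0.30) and Itgb3 (2.04). With spike-in centring, for blood against the reference 785 genes in all were called and the sign turned for Plaur (-0.35), F10 (-0.26), Tfpi (0.03), Vwf (-0.33), F5 (-0.35), Procr (0.03), Pros1 (-0.27), Anxa5 (-0.46), F2r (-0.11) and Cpb2 (-0.44). For the fraction against the reference 5767 genes in all and 36 pathway genes were called and the sign turned for F7 (0.83), F10 (0.09), Tfpi (-0.43), F13a1 (0.66) and Pros1 (0.42). For infiltrating minus blood 6766 genes in all and 38 pathway genes were called and the sign turned for F7 (0.75), F10 (0.35), Tfpi (-0.47), F13a1 (0.04), Pros1 (0.69) and Itgb3 (1.39). With the scanner program's deposited ratios, for blood against the reference 956 genes in all and 5 pathway genes were called and the sign turned for Plaur (-0.02) and Vldlr (-0.06). For the fraction against the reference 6 of the 9 genes, 5759 genes in all and 38 pathway genes were called. For infiltrating minus blood 7 of the 9 genes, 7006 genes in all and 41 pathway genes were called. With the mean of a gene's probes, for blood against the reference the sign turned for Klf2 (-0.42). On slide 1 alone, for blood against the reference 61 genes in all were called and the sign turned for Plaur (-0.04). On slide 2 alone, for blood against the reference 152 genes in all were called. On slide 3 alone, for the fraction against the reference the sign turned for Plaur (-0.17). On slide 4 alone, for the fraction against the reference the sign turned for F7 (0.33). With scaled Cy5 alone, for infiltrating minus blood 4 of the 9 genes were called and the sign turned for F7 (1.12) and F10 (0.76). With Cy5 over spike-ins (added after seeing the data), for infiltrating minus blood 5 of the 9 genes, 7888 genes in all and 42 pathway genes were called and the sign turned for Serpinb2 (0.43), F7 (2.34), F10 (3.35), Tfpi (-0.04), F13a1 (0.05), Pros1 (0.76) and Itgb3 (1.80). Without samples 897 and 898 of the fraction, for infiltrating minus blood the sign turned for Plaur (0.00).

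Leaving out each sample in turn left 0, 2 and 2 of the 9 genes called in the 3 comparisons, 75 to 106, 2312 to 2625 and 2847 to 3193 genes in all and 2 to 3, 19 to 21 and 19 to 22 pathway genes; the sign turned for Plaur without blood 898 (-0.05) and for F7 without blood 896 (-0.02) or 898 (-0.01), both in blood against the reference, where the ranges were -0.05 to 0.04 and -0.02 to 0.05. The sample number as a replicate block gave 2 of the 9 genes, 20 pathway genes and 2935 genes called in infiltrating minus blood, as without it; same-numbered samples correlated best with their own number in 5 of 8 cases, a hint from the data and not the design. Slide as a random block gave 2, 20 and 2935 as well. In this balanced layout neither block changes a log2 difference where every array has a value. The counts could move only through the p-values, so they do not test pairing or slide effects. Within-slide values of infiltrating minus blood do not exist, since each slide held 1 group. F3, Plau and Tfpi were limited by signal over background in blood.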
